A study of Mus musculus with 12 samples.

Results

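The promoters of microRNA genes were examined in the open chromatin of mouse liver. Members were taken by name from a table of 43511 promoters: every row whose symbol begins with Mir or Mirlet and whose transcript is a non-coding RefSeq RNA, without Mir6978. This gave 1381 rows of 1229 symbols, out of 25125 symbols in all. Of these rows, 1215 are the hairpin of a microRNA at its own annotated place, 143 are extra genomic placements of 46 hairpins, and 23 are host or other transcripts of 14 symbols, such as Mir22hg. ATAC-seq, in which a transposase cuts and tags accessible DNA, had been run on 12 libraries in 3 groups of 4. The control group was given distilled water, the atorvastatin group 10 mg/kg of a statin that inhibits cholesterol synthesis, and the PCN group 100 mg/kg of pregnenolone 16α-carbonitrile, a ligand of the mouse pregnane X receptor. All mice were wild-type C57BL/6N males, 19 to 20 weeks old, dosed by gavage for 4 days and fasted for 12 h. Each group held 9 to 10 mice, and whether a library stands for a single mouse is not given in the sources used here. P-values therefore measure the spread between libraries.

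A microRNA is cut from a hairpin in a longer transcript, first in the nucleus by Drosha with Dgcr8 and then in the cytoplasm by Dicer1. An Argonaute protein carries the mature strand to messenger RNAs that pair with its seed, the bases near its 5′ end. Many hairpins lie in introns of other genes and are transcribed with them, while others have transcripts of their own that may start far from the hairpin. The row of a hairpin is therefore centred on the hairpin, and the DNA it covers need not hold the start of the transcript that carries it. In the liver, miR-122 is the most abundant microRNA of hepatocytes and helps to set lipid metabolism.

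The mature strands that the results below turn on are printed 5′ to 3′ as RefSeq (GRCm38.p6) gives them, with the seed, bases 2 to 8, in capitals. The strands of the liver microRNAs come first, since the median window of the liver list was more accessible than that of all members. Next come let-7 and miR-103/107 strands, which share a seed while their windows differed in accessibility, then miR-33, whose hairpin lies in a gene of sterol control, and last the strands of hairpins whose windows stood among the smallest p-values. A sequence matched for 1046 hairpins.
miR-22-3p: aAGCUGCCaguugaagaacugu
miR-192-5p: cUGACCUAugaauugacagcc
miR-194-5p: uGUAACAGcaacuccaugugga
miR-148a-3p: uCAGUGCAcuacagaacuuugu
miR-193a-3p: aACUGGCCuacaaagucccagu
miR-193b-3p: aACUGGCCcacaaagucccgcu
miR-802-5p: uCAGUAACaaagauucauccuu
miR-101b-3p: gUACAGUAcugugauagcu
let-7b-5p: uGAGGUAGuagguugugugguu
let-7c-5p: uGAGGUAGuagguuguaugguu
miR-103-3p: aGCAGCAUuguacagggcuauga
miR-107-3p: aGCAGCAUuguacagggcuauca
miR-33-5p: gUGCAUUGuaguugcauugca
miR-126a-3p: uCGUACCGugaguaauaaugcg
miR-126b-3p: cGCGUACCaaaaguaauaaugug
miR-139-5p: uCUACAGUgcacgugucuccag
miR-7043-5p: uGUGAAAGcagagaggcauuuuu
miR-6965-5p: aGAGGGAGgcuauugggcaggaga

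Some of these strands share a seed, and the windows of their hairpins did not share a level. The seed GAGGUAG belonged to 13 hairpins with windows from 2.05 to 54.1 CPM (library-size-normalised read counts from edgeR, with library sizes scaled by the trimmed mean of M-values, averaged over the 12 libraries). The seed GCAGCAU of miR-103 and miR-107 spanned 5.56 to 38.8 CPM over 3 hairpins. The seed CAGUGCA of miR-148a, miR-148b and miR-152 spanned 15.5 to 46.0 CPM, and the seed ACUGGCC of miR-193a and miR-193b spanned 12.7 to 42.4 CPM. Seed families were looked up after the values were seen.

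The most accessible member was Mir22hg, the host transcript of miR-22, at chr11:75461539-75466690, with a mean of 153.5 CPM. Its promoter is shown because the data bear on this stretch directly. RefSeq (GRCm38.p6) places it at chr11:75461289-75461588 on the plus strand, and the capitals mark the letters CCAAT and GGGCGG, or their reverse complements, in these 300 bases.
Mir22hg promoter: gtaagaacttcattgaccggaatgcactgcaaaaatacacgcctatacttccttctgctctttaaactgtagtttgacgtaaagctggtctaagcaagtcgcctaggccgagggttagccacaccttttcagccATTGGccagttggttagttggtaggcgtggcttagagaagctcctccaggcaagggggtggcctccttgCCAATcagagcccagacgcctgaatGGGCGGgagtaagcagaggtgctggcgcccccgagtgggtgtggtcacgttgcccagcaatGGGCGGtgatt
Its GC content was 54.7%. CCAAT occurred 2 times on either strand, and 37.4% of 32544 RefSeq promoters of the same length hold it. GGGCGG also occurred 2 times and is held by 35.9%, while TATAAA, held by 13.6%, was not found in these letters. The matches do not overlap, and they describe letters, not binding.

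The width of the promoter windows is not given in the sources used here. No region of the deposited enhancer table was centred within 2000 bp of any of the 993 hairpin 5′ ends that could be placed, and the nearest lay 2047 bp away. The window was therefore read as 2 kb to each side, 4 kb in all, and counts were compared between promoters without division by length. Hairpins less than 4 kb apart share reads, so that neighbours such as Mir192 and Mir194-2 are not separate measurements. Rows with copies elsewhere are uncertain as well: 180 member rows held the same counts in every library as some other promoter.

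Promoter counts per library ranged from 1679054 in control 4 to 15336000.5 in atorvastatin 2. Control 3 and atorvastatin 3 stood apart, with median correlations of 0.698 and 0.744 with the other libraries, against 0.897 for control 4 and at least 0.95 for the rest. Of the 1381 members, 305 had no count in control 3 and 201 had none in control 4, against 16 to 67 elsewhere. All 8 hepatocyte markers looked up lay above the closed background defined next, but in control 3 the promoter of Alb stood at 3.19 CPM (17.3 to 49.6 elsewhere) and that of Fgb at 0. Dcn, Vsig4, Cd3e, Ptprc and Hbb-bs, genes of other cell types, lay under the closed background in the mean, whereas the heart gene Myh6, the neuronal gene Neurod1 and the islet gene Ins2 lay above it. Results that rest on control 3 or atorvastatin 3 are given with and without both.

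To set a scale for closed chromatin, 1157 promoter rows of olfactory receptor genes, which hepatocytes do not use, were taken as background. Their 95th percentile was 5.395 CPM, and a window above it is called open here. Of the 1381 members, 810 (58.7%) were open, against 33665 of all 43511 promoters (77.4%). The median member stood at 6.27 CPM, between the olfactory receptor promoters (2.87 CPM) and all promoters (15.5 CPM). The Mirt2 and Mir22hg rows, with the other 21 host or other transcripts, had a median of 7.69 CPM, and 16 of the 23 were open. The extra placements had a median of 1.96 CPM and 8 of 143 (5.59%) open, and 14 members held no count in any library.

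Accessibility at hairpins followed where the hairpin lay. Of the 1215 hairpins, 150 had the annotated start of another gene in the same window, and their median was 21.5 CPM with 139 (92.7%) open. Another 795 lay inside a gene without such a start, at a median of 6.60 CPM with 499 (62.8%) open. Inside was judged by position alone, without the strand, so some of these hairpins may be antisense to the gene called their host. The 236 between genes were lowest, at 5.58 CPM with 124 (52.5%) open. On the autosomes alone the shares lay closer together. There 66.5% of 746 hairpins inside a gene were open (median 6.90 CPM), and 62.4% of 197 between genes (median 6.15 CPM). Within genes, the 686 hairpins with a protein-coding host had a median of 7.08 CPM, and the 109 with a long non-coding host one of 5.30 CPM. The remaining 34 lie on chromosome 18, for which no start positions were used here, and had a median of 7.78 CPM. In each of the 3 groups the order of the first 3 classes was the same: over the 4 control libraries the middle of the library medians was 23.2, 6.57 and 4.88 CPM, over atorvastatin 22.5, 6.12 and 4.49 CPM, and over PCN 20.9, 4.80 and 3.44 CPM. Windows with the start of another gene were set apart from the other classes in every group, while the ranges of library medians of windows inside genes (3.76 to 12.5 CPM) and between genes (2.75 to 12.1 CPM) overlapped almost wholly.

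**Figure D1:**
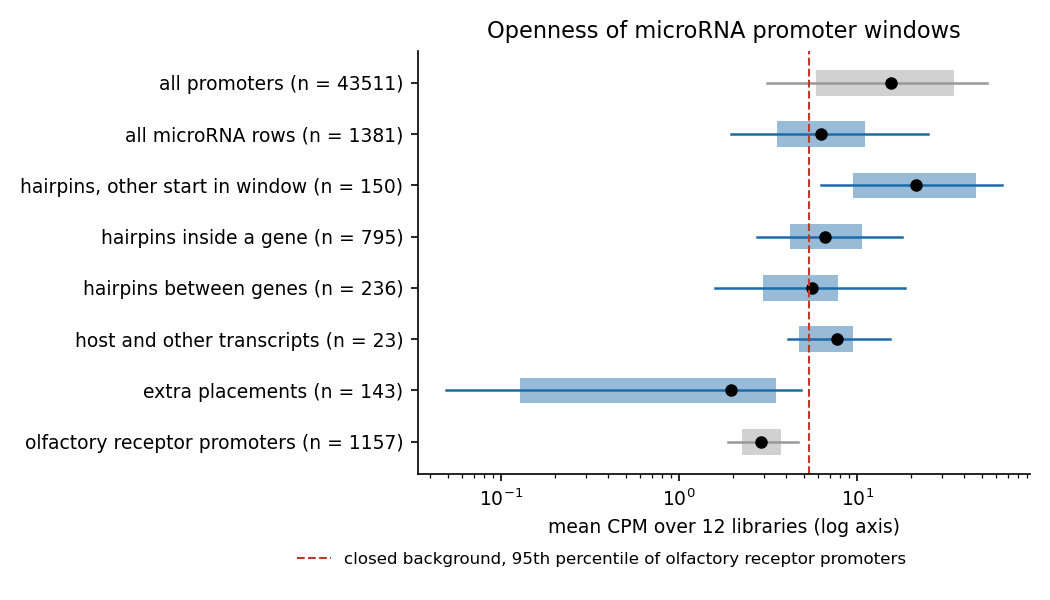
Mean CPM over the 12 libraries (log axis) for classes of promoter windows; points are medians, boxes the 25th to 75th and lines the 10th to 90th percentiles over windows, and the dashed line is the closed background of 5.395 CPM. Hairpins with the start of another gene in their window lie highest among the member classes (21.5 CPM) and extra placements lowest (1.96 CPM).

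Distance to the nearest annotated gene start gave a graded picture. The median fell from 26.1 CPM for the 76 hairpins within 500 bp of a start to 11.5 CPM for the 59 at 2000 to 3000 bp, just outside the window. It was 8.46 CPM for the 132 at 5000 to 10000 bp, 5.95 CPM for the 217 at 20000 to 50000 bp and 3.79 CPM for the 232 beyond 100000 bp. The share of open windows was 92.1% in the nearest class and 31.5% in the farthest. The steps were not all downward, since hairpins at 500 to 1000 bp had a median of 17.6 CPM and those at 1000 to 2000 bp one of 19.0 CPM.

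**Figure D2:**
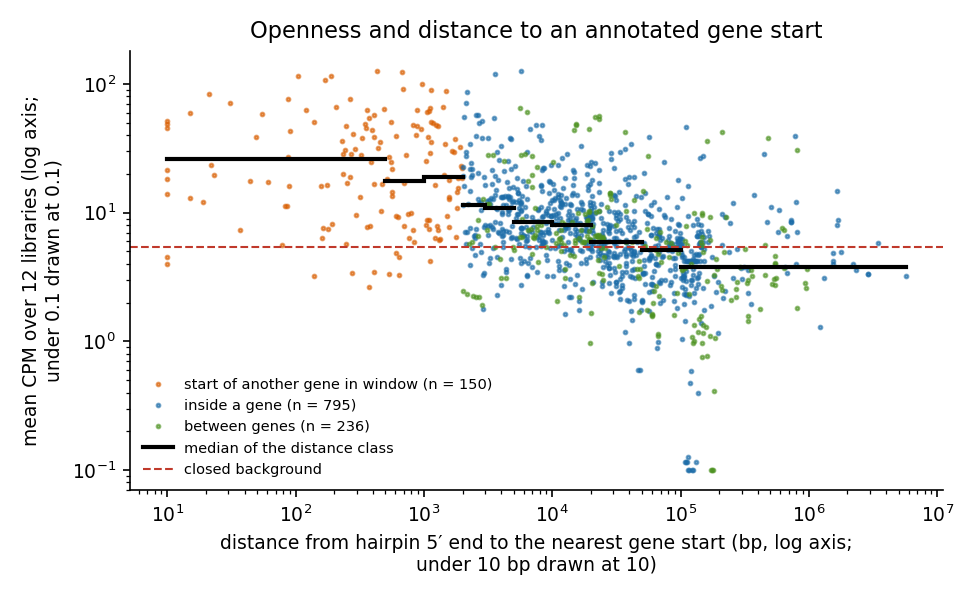
Mean CPM of each placed hairpin window (log axis) against the distance in bp from the hairpin to the nearest annotated gene start (log axis), coloured by position; black bars are medians of distance classes and the dashed line is the closed background. The median falls from 26.1 CPM within 500 bp to 3.79 CPM beyond 100000 bp, with single hairpins far above and below it at every distance.

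Hairpins on the X chromosome, of which male mice carry a single copy, were mostly closed. Of 91 hairpins on the X chromosome 6 (6.59%) were open, with a median of 1.94 CPM, against 780 of 1124 (69.4%) and 7.24 CPM on the autosomes. Other promoters matched to RefSeq had a median of 3.40 CPM on the X (39.7% of 1951 open) and 17.6 CPM on the autosomes (80.3% of 39835 open). X-linked hairpins were low inside genes (2.48 CPM, 49 hairpins) and between genes (1.44 CPM, 39 hairpins). Mir223, a myeloid microRNA, and Mir221 are among them, at 1.79 and 1.44 CPM.

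A host gene whose promoter was accessible did not make the hairpin window accessible to the same degree. For 748 hairpins inside 583 host genes, the median window stood at 6.72 CPM and the median host promoter at 20.8 CPM. The host value is that of the gene's most accessible promoter row, while each hairpin row enters on its own. This choice can only raise the host side. The hairpin window exceeded the host promoter in 98 of them. Where the host promoter was open, 452 of 685 hairpin windows (66.0%) were open too, and where it was closed, 21 of 63 (33.3%) were. Across these hairpins, which share libraries and in part hosts, Spearman's rho between the 2 levels was 0.45, given as a description.

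The 12 most accessible members were led by Mir22hg. Its promoter read 85.7, 124, 110.8 and 175 CPM in the control libraries, 109.7, 197, 109.6 and 177 CPM with atorvastatin and 127.5, 197.5, 235 and 192 CPM with PCN. Every library was far above the closed background and the groups overlapped, with a log2 fold change of 0.61 ± 0.33 (SE) for PCN against control. It was followed by Mir7240 (126.8 CPM), which lies inside the kinase gene Mast3 at chr8:70798135-70798192, 5730 bp from its start, and Mir1938 (126.3 CPM), 428 bp from the start of Ifrd1. Mir707 (124.0 CPM) lies 673 bp from the start of Akt1s1, and Mir3569 (119.0 CPM) inside Gm32082, 3562 bp from the start of Zbtb32. Mir3960 (115.6 CPM) and Mir2861 (115.1 CPM) lie 188 and 104 bp from the start of Cdk9, the kinase that releases paused RNA polymerase II, and share nearly all their reads. Mir7653 (106.6 CPM) lies at Tlcd1, Mir7687 (99.4 CPM) inside Gse1, Mir1894 (90.6 CPM) at Ppp1r10, Mir3069 (89.3 CPM) at the small nucleolar RNA host Snhg10 and Mir3082 (87.5 CPM) at Stub1, a ubiquitin ligase gene. Of the 12, 9 had the start of a protein-coding or other gene in their window, so that their level is also that of the neighbour: 126.3 CPM for Mir1938 and 127.8 CPM for the Ifrd1 promoter, 124.0 CPM for both Mir707 and Akt1s1. Mir7240 differed, with its window at 126.8 CPM and the Mast3 promoter at 47.2 CPM.

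Hairpins known for the liver lay high. Of 15 liver microRNAs listed, 14 were in the table, all 14 were open, and their median was 31.7 CPM, against 6.27 CPM for all members. Mir22 led with 86.7 CPM, at chr11:75463716-75463810, 2177 bp from the start of Mir22hg, so that its window shares reads with that promoter. It read 47.7, 70.9, 93.3 and 85.5 CPM in controls, 54.4, 111.6, 71.0 and 99.3 CPM with atorvastatin and 67.0, 108, 123 and 107.8 CPM with PCN. The groups overlapped (log2 fold change 0.46 ± 0.30, SE, with PCN and 0.19 ± 0.30 with atorvastatin). Without the libraries that stood apart these were 0.60 and 0.40, while the value for PCN was 0.30 without control 1 and 0.18 with loess scaling. On leaving out 1 library, that for atorvastatin ran from 0.01 (without atorvastatin 2) to 0.35 (without atorvastatin 1). Mir194-2 (56.3 CPM) and Mir192 (53.6 CPM), made from a single transcript at chr19:6264643-6264932 and known as targets of the hepatocyte nuclear factors, followed. Mir148a stood at 46.0 CPM, Mir122 at 44.3 CPM, Mir193a at 42.4 CPM, Mir455 at 33.9 CPM, Mir101b at 29.6 CPM and Mir802 at 24.6 CPM. The broadly made Mir21a was lower, at 16.8 CPM, as were Mir365-2 (14.7 CPM), Mir193b (12.7 CPM), Mir365-1 (6.70 CPM) and Mir194-1 (6.27 CPM). Of these, Mir192, Mir194-2, Mir193a and Mir802 lie between genes and more than 10000 bp from the nearest annotated start, whereas the median hairpin between genes stood at 5.58 CPM.

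Mir122, at chr18:65248861-65248926, stood above 84.0% of all promoters. It read 51.4, 56.2, 2.39 and 71.0 CPM in the control libraries, 28.8, 37.2, 36.8 and 77.3 CPM in the atorvastatin libraries and 31.9, 27.0, 44.8 and 66.8 CPM in the PCN libraries. Control 3 lay under the closed background, the other 11 libraries were spread over the same range, and the groups overlapped. Relative to the olfactory receptor promoters of its own library, the window was 1.2-fold higher in control 3 and 6.04-fold higher in atorvastatin 3, against 8.1- to 43.1-fold in the other 10. The log2 fold change was -0.09 ± 0.47 (SE) for PCN against control and 0.00 ± 0.47 for atorvastatin against control. Without control 3 and atorvastatin 3 these values were -0.46 ± 0.23 and -0.28 ± 0.25. Control 3 also had the lowest sum of the 8 hepatocyte markers, 223 CPM against 270.5 to 419 CPM in the other controls, 271 to 501 CPM with atorvastatin and 311 to 467 CPM with PCN, and the part of this in the Mir122 values was not tested. In whole liver, fewer hepatocytes and less open DNA per hepatocyte cannot be told apart.

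Among 17237 promoters within 2-fold of its mean, the 5 symbols whose log2 CPM followed Mir122 most closely over the 12 libraries were Mir122b, which overlaps it (Pearson's r 0.9999), Dand5 (0.971), Gadd45gip1 (0.971), Spg20 (0.968) and Cidec (0.963), which codes for a lipid droplet protein. These values carry the low reading of control 3, and Dand5 and Gadd45gip1 have nearly the same mean of 26.7 CPM.

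**Figure D3:**
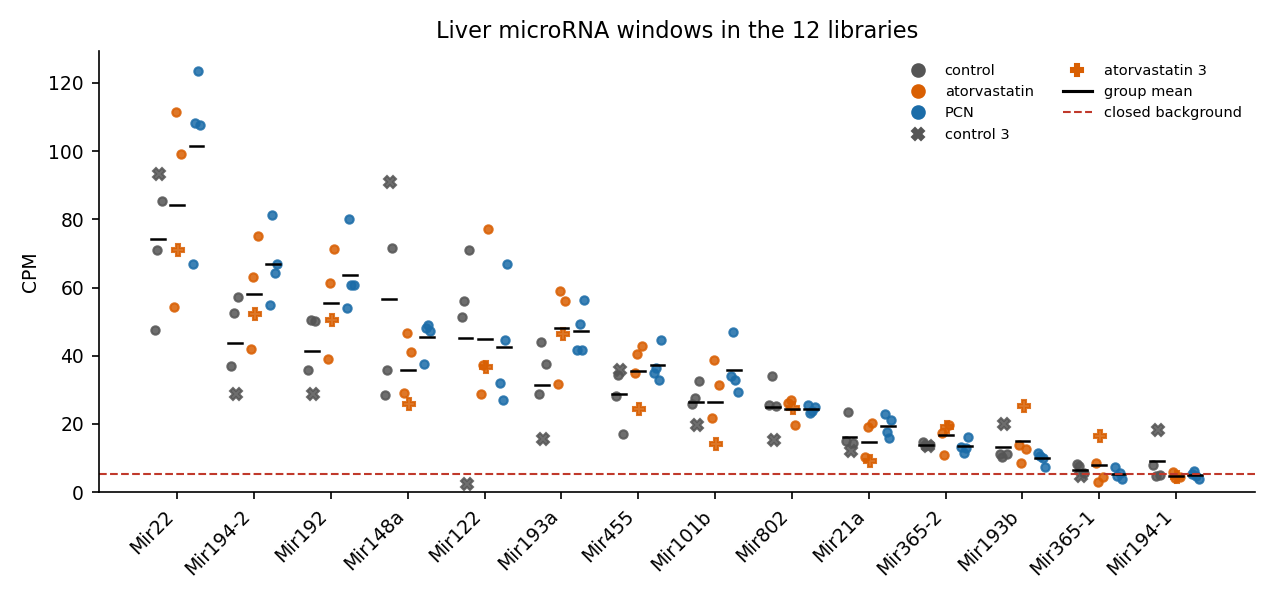
CPM of the 14 liver microRNA windows in each library, with the 4 libraries of a group side by side, bars for group means, crosses for control 3 and plus signs for atorvastatin 3; the dashed line is the closed background. Mir122 reads 2.39 CPM in control 3 and 27.0 to 77.3 CPM in the other 11 libraries, and Mir148a is highest in control 3.

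The same mature strand can come from hairpins in very different chromatin. Of 52 mature products with more than one locus, 45 had windows that do not overlap, and in 14 of these the most accessible window was on average over 2-fold higher than the least. In 6 it was higher in 12 of 12 libraries. The most and least accessible windows were picked by these same means, so the direction was set in advance. Some of the 45, such as Mir8099-1 and Mir8099-2, held the same values in every library. Some of the 14 set an autosomal window against one on the X chromosome, such as Mir19b-1 and Mir19b-2. Let-7c-5p comes from Mirlet7c-2 at 51.4 CPM, inside Lncppara on chromosome 15, and from Mirlet7c-1 at 2.56 CPM, between genes on chromosome 16, a 20.1-fold ratio of means. Mirlet7c-2 read 37.9, 46.1, 44.65 and 44.6 CPM in controls, 39.4, 60.3, 33.5 and 65.2 CPM with atorvastatin and 51.4, 60.6, 55.4 and 77.8 CPM with PCN. Mirlet7c-1 read 4.25, 4.50, 0 and 1.89 CPM, 4.42, 1.45, 2.37 and 1.79 CPM, and 1.94, 2.11, 2.02 and 3.93 CPM in the same order, under the closed background in every library. MiR-194-5p comes from Mir194-2 on chromosome 19 and Mir194-1 on chromosome 1, at 56.3 and 6.27 CPM (8.97-fold). MiR-219a-5p comes from Mir219a-1 (38.6 CPM, beside Ring1) and Mir219a-2 (7.40 CPM), and miR-365-3p from Mir365-2 (14.7 CPM) and Mir365-1 (6.70 CPM). The chromosome 1 locus of Mir194-1 also holds Mir215, which shares the seed of miR-192, and its window stood at 6.37 CPM against 53.6 CPM for Mir192. For miR-103-3p, Mir103-1 was higher than Mir103-2 in 11 of 12 libraries (12.9 and 5.56 CPM). Loci and pairs were compared after the values were seen.

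Each treatment was compared with control, and the treatments with each other, in 1 model of the 12 libraries (edgeR's quasi-likelihood test), adjusted by the Benjamini-Hochberg method over all 41908 promoters that passed the filter on low counts. Of the members, 1290 passed that filter, and the 91 that did not were 28 hairpins and 63 extra placements. No promoter passed an adjusted p of 0.05 in any of the 3 comparisons (0.0% of 41908), so no member did. The smallest adjusted p of a member in edgeR's test (Benjamini-Hochberg) was 0.918 for PCN against control, 0.9998 for atorvastatin against control and 0.9996 for PCN against atorvastatin. The members described next are those of smallest unadjusted p, and none is called changed. They were picked by p in these same libraries, so groups that do not overlap follow in part from the choice. Such separation is a description and no further support, and the share of all promoters without overlap is not given here.

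At an unadjusted p under 0.05, 15 members were higher with PCN (1.16%) and 29 lower (2.25%), where 1.87% of all promoters were higher and 1.88% lower. With atorvastatin 9 were higher (0.698%) and 16 lower (1.24%), where the shares of all promoters were 1.06% and 0.866%. Between the treatments no member was higher with PCN and 21 were lower (1.63%), where the shares were 0.043% and 0.687%. The shares are small in members and in all promoters alike. The comparisons share libraries and are not independent of each other.

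Over the 1290 members tested, the median log2 fold change with PCN was -0.21, with 417 (32.3%) above 0, against 0.01 and 51.0% over all promoters. Olfactory receptor promoters moved further the same way, with a median of -0.42. For atorvastatin the median was 0.07 over members, 0.05 over all promoters and -0.00 over olfactory receptor promoters. Without control 3 and atorvastatin 3 the members' median was -0.22 for PCN and -0.32 for atorvastatin, and without control 1 alone it was -0.04 for PCN. The background of the libraries moved with these values: the olfactory receptor median was 1.89 to 4.17 CPM in controls, 1.16 to 6.09 CPM with atorvastatin and 1.86 to 3.30 CPM with PCN, and the member median ran from 3.47 CPM in atorvastatin 2 to 12.2 CPM in atorvastatin 3. With that background as a term in the model the median for PCN was 0.05. Its part in any single window was not tested.

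**Figure D4:**
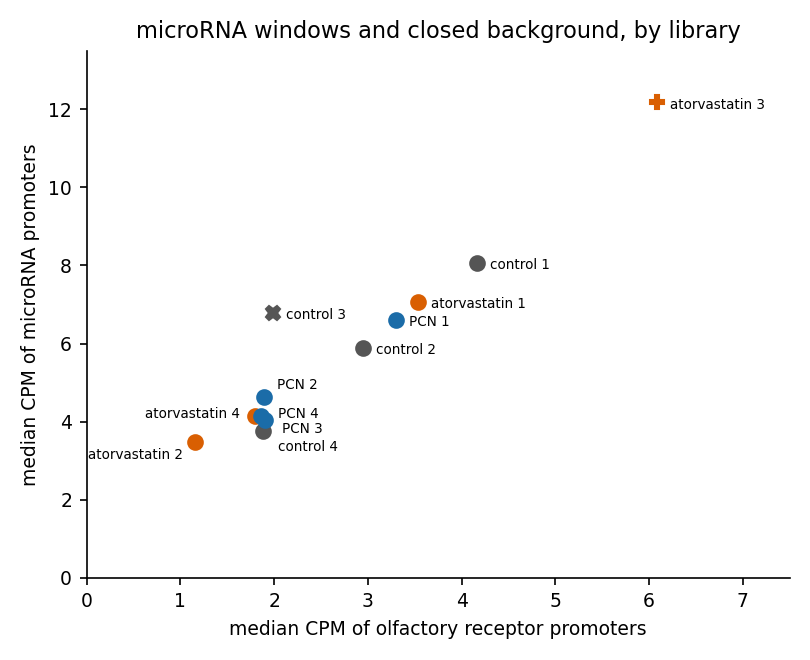
Median CPM of the microRNA promoters against the median CPM of the olfactory receptor promoters, 1 point per library, coloured by group. Atorvastatin 3 lies highest on both axes (12.2 and 6.09 CPM) and atorvastatin 2 lowest (3.47 and 1.16 CPM), and the groups overlap.

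Mir126a and Mir126b are overlapping hairpins on opposite strands inside Egfl7, a gene of endothelial cells. They had the smallest p-values among windows that were higher with atorvastatin. Mir126a, at chr2:26591357-26591429, read 25.4, 29.5, 21.5 and 32.0 CPM in controls, 42.0, 36.9, 51.2 and 54.6 CPM with atorvastatin and 33.7, 38.7, 41.8 and 48.8 CPM with PCN. Every treated library lay above every control library. The log2 fold change was 0.77 ± 0.22 (SE) with atorvastatin (edgeR, unadjusted p = 0.00154) and 0.59 ± 0.22 with PCN (0.0119), and 0.65 and 0.52 without the libraries that stood apart. The Egfl7 promoter, 4721 bp away, was at 17.4 ± 1.49 CPM (SD over 4 libraries) in controls, 25.6 ± 6.02 CPM with atorvastatin and 23.0 ± 2.83 CPM with PCN. The summed CPM of 3 endothelial marker promoters was 21.4 to 40.4 in controls, 22.9 to 45.9 with atorvastatin and 22.0 to 27.4 with PCN, none of them at 0 in any library, and its part was not tested.

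Mir6965, inside the cyclin gene Ccnf at chr17:24240884-24240947, was the window of smallest p that was lower with either treatment. It read 15.8, 14.9, 31.1 and 22.6 CPM in controls, 9.07, 6.86, 7.44 and 8.32 CPM with atorvastatin and 11.8, 10.1, 10.1 and 9.10 CPM with PCN. All control libraries lay above all treated ones, and control 3 was highest. The log2 fold change was -1.40 ± 0.32 (SE) with atorvastatin (edgeR, unadjusted p = 0.00018) and -1.01 ± 0.31 with PCN (0.00363), and -1.10 and -0.73 without the libraries that stood apart. The Ccnf promoter, 10462 bp away, was on the other side of 0, at 0.43 and 0.37.

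Mir192, whose strand is printed above, had separate groups with PCN. It read 35.9, 50.6, 28.7 and 50.3 CPM in controls, 39.1, 61.3, 50.4 and 71.2 CPM with atorvastatin and 53.95, 80.0, 60.7 and 60.6 CPM with PCN. All 4 PCN libraries lay above all control libraries, while atorvastatin and control overlapped. The log2 fold change was 0.63 ± 0.25 (SE) with PCN (edgeR, unadjusted p = 0.0206), 0.50 without the libraries that stood apart, and 0.43 ± 0.25 with atorvastatin.

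Mir139, inside the phosphodiesterase gene Pde2a at chr7:101475376-101475443, was low with PCN. It read 15.5, 8.85, 9.57 and 14.5 CPM in controls and 5.46, 4.21, 5.27 and 5.59 CPM with PCN, near the closed background. The groups did not overlap, with a log2 fold change of -1.23 ± 0.45 (SE; edgeR, unadjusted p = 0.0110), and -1.31 without control 3 and atorvastatin 3. With atorvastatin the window read 7.30, 6.65, 12.3 and 5.54 CPM, overlapping with control. Mir339, at chr5:139369650-139369745, read 29.3, 37.6, 19.1 and 31.4 CPM in controls and 40.4, 45.3, 53.6 and 57.3 CPM with PCN. These groups did not overlap either (0.73 ± 0.27, SE).

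Mir107, inside Pank1, which makes the first enzyme of coenzyme A synthesis, read 24.0, 33.5, 3.19 and 41.5 CPM in controls and 38.0, 70.3, 44.2 and 42.8 CPM with PCN. Control 3 was far below the rest, and the groups overlapped, since control 4 lay above PCN 1. The log2 fold change was 0.94 ± 0.39 (SE), and 0.62 without the libraries that stood apart. Mir7043, inside Rassf4, read 20.9, 23.3, 13.95 and 20.7 CPM in controls and 11.5, 11.1, 13.4 and 12.15 CPM with atorvastatin. The groups did not overlap, at -0.72 ± 0.26 (SE) and -0.91 without both libraries.

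**Figure D5:**
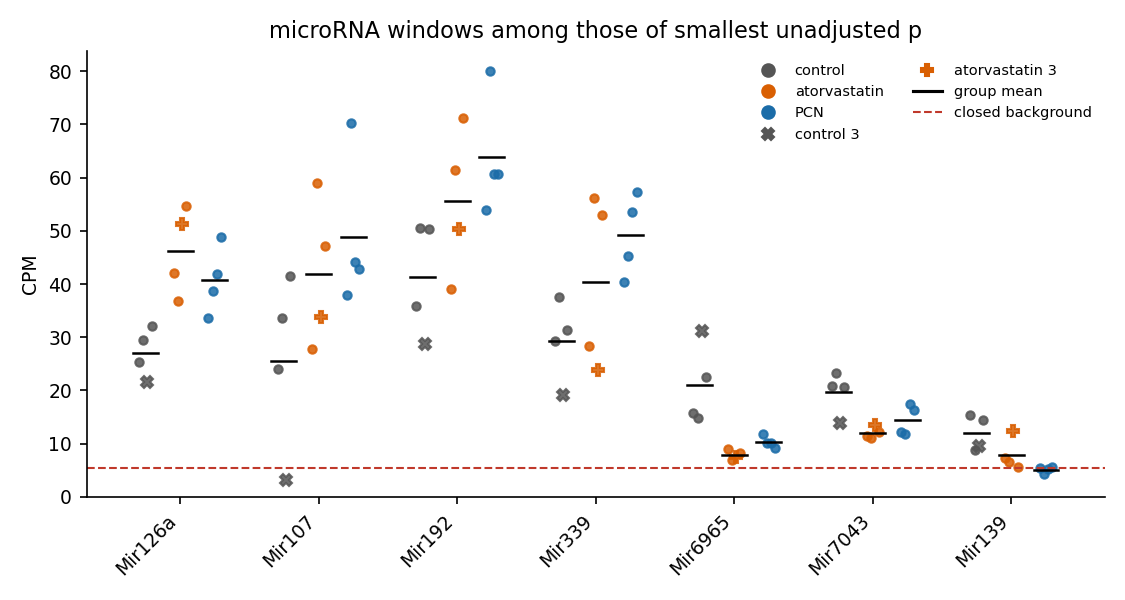
CPM in each library for 7 windows of small unadjusted p, with bars for group means, crosses for control 3 and plus signs for atorvastatin 3; the dashed line is the closed background. All control libraries lie below all treated ones for Mir126a and above them for Mir6965, windows picked by p in these same libraries.

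Other windows of small p also moved when the libraries that stood apart were left out, to differing degrees. Control 3 was the highest control at Mir7059, Mir7117, Mir6974 and Mir1964, all lower with PCN: without it and atorvastatin 3 the log2 fold change went from -0.98 to -0.82, -1.37 to -1.03, -1.25 to -0.75 and -1.42 to -0.80. Mir6956 was higher with atorvastatin by 0.77 ± 0.30 (SE), and by 0.24 without both. Mir219a-1 and Mir219c, beside Ring1, were lower with atorvastatin, at -0.59 ± 0.22 (SE), and at -0.28 without both. For PCN against atorvastatin, Mir494 went from -1.71 to -0.33 and Mir101c from -1.60 to 0.25, since atorvastatin 3 read 28.9 CPM at Mir494 (2.77 to 6.63 CPM in the other 3) and 178.3 CPM at Mir101c (5.92 to 38.5 CPM). Mirt2, a long non-coding RNA that the symbol rule took in, is no microRNA; its promoter read 15.5, 11.8, 9.17 and 15.1 CPM in controls and 20.9, 26.7, 17.7 and 19.0 CPM with PCN, without overlap.

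Of the liver list, 7 of 14 windows had a log2 fold change above 0 with PCN (median 0.09) and 10 with atorvastatin (median 0.20), where the medians over all promoters were 0.01 and 0.05. Without the libraries that stood apart 8 were above 0 in each, with medians of 0.11 and 0.11. Mir193a, at chr11:79711969-79712034, read 28.9, 44.1, 15.55 and 37.7 CPM in controls, 31.6, 59.1, 46.2 and 56.1 CPM with atorvastatin and 41.7, 49.3, 41.7 and 56.3 CPM with PCN. Control 3 was lowest and both treated groups overlapped with control (0.61 ± 0.27 and 0.57 ± 0.27, SE). Without the libraries that stood apart the values were 0.43 and 0.37, and without control 3 alone that for atorvastatin was 0.40. Mir148a read 28.6, 35.7, 90.9 and 71.6 CPM in controls and 29.2, 46.5, 25.9 and 41.1 CPM with atorvastatin. Control 3 was highest there, and the log2 fold change of -0.63 ± 0.30 (SE) was -0.12 without the libraries that stood apart.

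Statins act on cholesterol synthesis, and the hairpin of miR-33, which represses cholesterol export genes, lies inside Srebf2, the gene of the factor that turns sterol synthesis on. Mir33, at chr15:82198122-82198190, read 19.2, 18.6, 20.7 and 20.1 CPM in controls, 11.1, 12.4, 28.9 and 24.0 CPM with atorvastatin and 14.3, 16.4, 18.85 and 16.55 CPM with PCN. The controls lay close together, and the atorvastatin libraries fell on both sides of them. The log2 fold change was -0.03 ± 0.27 (SE) with atorvastatin and -0.24 ± 0.28 with PCN, and -0.25 and -0.21 without the libraries that stood apart. The Srebf2 promoter was at 37.0 ± 10.3 CPM (SD over 4 libraries) in controls, 48.35 ± 16.9 CPM with atorvastatin and 59.0 ± 12.7 CPM with PCN. Of all 23 sterol and lipid microRNAs, 19 were open, from Mir128-1 at 1.46 CPM to Mir378a at 51.75 CPM. With atorvastatin 10 of the 23 were above 0 (median -0.05) and with PCN 5 (median -0.32). Without the libraries that stood apart these were 4 (median -0.27) and 5 (median -0.26), and with the closed background as a term the median for PCN was -0.12.

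The other lists of microRNAs had medians below the 31.7 CPM of the liver list, some under and some above the 6.27 CPM of all members. Of the muscle list 4 of 10 were open (median 4.20 CPM), of the haematopoietic list 4 of 12 (4.79 CPM) and of the let-7 family 5 of 12 (3.93 CPM), in which Mirlet7b reached 54.1 CPM. The epithelial list had 11 of 11 open (7.95 CPM), up to Mir203 at 48.6 CPM, the stellate cell list 9 of 10 (9.76 CPM) and the endothelial list 5 of 7 (13.8 CPM), from Mir221 at 1.44 CPM to Mir126a at 38.0 CPM. All 10 xenobiotic microRNAs, which target drug-handling genes and their receptors, were open (14.6 CPM), and 3 of them were above 0 with PCN (median -0.20), or 5 without the libraries that stood apart (median 0.04). The neuronal list had 12 of 19 open (6.31 CPM), the miR-17 clusters 9 of 15 (11.3 CPM) and the early embryo list 9 of 14 (16.3 CPM). The imprinted Dlk1-Dio3 cluster on chromosome 12, a long array of hairpins, had 41 of 46 open at a median of 6.29 CPM. Its windows are neighbours and share reads. None of its 46 was above 0 with PCN (median -0.73, and -0.58 without the libraries that stood apart), while 37 were above 0 with atorvastatin (median 0.32) and 4 without those libraries (median -0.39). With the closed background as a term in the model, the median for PCN was -0.15.

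The genes that make and load microRNAs were nearly all accessible. Each gene of the processing machinery entered with its most accessible promoter row, which favours open values. The share is therefore not set against that of all promoters. Of these 31 promoters 30 were open, with a median of 34.4 CPM, from Lin28b (3.86 CPM), which blocks let-7 processing, to Khsrp (150.8 CPM). With PCN 24 were above 0 (median 0.25) and with atorvastatin 20 (median 0.14). With the closed background as a term these medians were 0.08 and 0.02. Drosha stood at -0.33 ± 0.25 (SE), Dgcr8 at 0.34 ± 0.23, Dicer1 at 0.52 ± 0.28 and Ago2 at 0.12 ± 0.21 for PCN. Gemin4, picked for its small p with PCN, read 26.0, 23.9, 20.3 and 26.4 CPM in controls and 30.2, 40.8, 37.2 and 31.4 CPM with PCN, without overlap.

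Around the liver hairpins the deposited enhancer table held distal regions, in which no region passed an adjusted p of 0.05 in any comparison. Within 20 kb of Mir122 lay 38 regions, of which 31 were tested. With PCN 25 of them were above 0, at a median of 0.52, and 18 of 31 without the libraries that stood apart, at 0.15. With atorvastatin 28 were above 0, at a median of 0.61, and 26 of 31 without those libraries, at 0.31. Near Mir22 all 10 regions were above 0 with both treatments, at medians of 0.86 with PCN and 0.53 with atorvastatin (0.53 and 0.39 without those libraries). Near Mir193a 27 of 28 were above 0 with PCN (median 0.82, and 0.57 without them). Other liver hairpins differed from these. Near Mir148a 10 of 11 regions were above 0 with PCN (median 0.09), and 0 of 11 without those libraries (median -0.24). Near Mir192 the median over 8 regions was 0.25 with PCN, and -0.05 over 9 without those libraries. The single region tested near Mir802 stood at -1.82. Medians with PCN were 1.33 near Mir455, 0.58 near Mir21a and 0.16 near Mir101b, and 0.89, 0.21 and 0.50 without those libraries. Near Mir126a, of 44 regions tested, 28 were above 0 with PCN (median 0.47, and 0.74 without those libraries). Near Mir107, 21 of 23 were above 0 with PCN (median 1.03, and 0.75 without those libraries). Near Mir6965, whose own window was lower with both treatments, 11 of 23 were above 0 with PCN (median -0.01, and 0.13 without those libraries) and 18 with atorvastatin (median 0.92, and 0.40 without them). Near Mir33, 39 of 43 were above 0 with PCN (median 0.38, and 0.18 without those libraries). Mir139, whose own window was lower with PCN, had 9 of 13 regions above 0 (median 0.36), and 9 of 21 without those libraries (median -0.09). Mir339 had 27 of 30 above 0 with PCN (median 0.48, and 0.46 without those libraries). Mir203 had 6 of 6 above 0 with PCN (median 0.47), and 3 of 7 without those libraries (median -0.09). The medians over all 182115 regions were 0.17 for PCN and 0.12 for atorvastatin, and 0.02 and 0.01 without those libraries. Regions overlap each other, so these counts are not independent.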

How the data were processed

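ATAC-seq libraries of mouse liver were processed by the authors with Trimmomatic, STAR 2.7.9a, bedtools 2.30.0 and HOMER 4.10 on mm10, per the submitters' processing notes. The deposited tables hold expected counts per promoter or enhancer region, in steps of 0.5, which were rounded to whole numbers for testing. Which tool made the counts and the promoter window width are not given in the sources used here, so the width was read from the gap in the enhancer table. A pravastatin group was not analysed here.

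Counts were scaled by the trimmed mean of M-values and filtered with filterByExpr (minimum count 10, minimum total 15). All 12 libraries entered edgeR 4.0.16 (R 4.3.3) with group as the only term, with Benjamini-Hochberg adjustment over all promoters. Standard errors were approximated by dividing each log2 fold change, without its sign, by the root of its F statistic. The code was tested on simulated data. Host, marker and machinery genes with several promoter rows were each represented by the row of highest mean CPM. Named were Mir122, the 12 members of highest mean CPM, the 6 of smallest p per comparison and direction, the liver and sterol lists, the extremes of other lists, 3 machinery genes per comparison with the 4 core genes, and the 5 promoters most like Mir122.

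The members and lists were chosen with earlier results of these data known. Position, host, distance, X chromosome, seed, shared product, motif and enhancer look-ups were decided after the files were seen and are descriptions. Alternatives covered normalisation, filter, tool, leaving out each library, leaving out control 3 and atorvastatin 3 together, and a replicate block. A further 3 were chosen after seeing the data: leaving out both libraries with the block, the closed background as a covariate, and rows of identical counts taken once.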

Additional observations from a re-analysis of the deposited data

Results flagged for a closer look

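A library stood far from the other 3 of its group in 11 of 96 groups of values tested (11.5%). Chance flags about 1 in 20 where values are not picked by the same data. Windows such as Mir494, Mir1964 and Mir6974 were named for small p-values in these same libraries, so that rate does not hold for them. Control 3 was highest at Mir1964 (20.73 CPM, others 5.28 to 7.82), Mir6990 (37.08 CPM, others 21.1 to 22.3), Mir7059 (19.93 CPM, others 13.2 to 14.3) and Mir6974 (25.52 CPM, others 8.38 to 10.7). Atorvastatin 3 was highest at Mir494 (28.87 CPM, others 2.77 to 6.63), Mir6956 (37.89 CPM, others 13.9 to 16.4), Mir6969 (31.57 CPM, others 5.06 to 7.42) and Mir6974 (22.33 CPM, others 5.13 to 7.30). Atorvastatin 4 was highest at Mir6990 (23.64 CPM, others 13.7 to 15.3). PCN 1 was lowest of its group at Mir148a (37.67 CPM, others 47.4 to 48.9) and had the highest median of the olfactory receptor promoters (3.301 CPM, others 1.86 to 1.91).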

How the results depend on the processing

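Of 42 single fold changes under 25 alternatives, 37 kept their sign throughout. For PCN, Mir122 turned positive with limma-voom (0.26) and without control 2 (0.06), control 4 (0.16), PCN 1 (0.03) or PCN 2 (0.08), within a range of -0.47 to 0.16 leaving out 1 library, and Mir148a without control 3 (0.065, with -0.52 the lowest on leaving out 1 library), without control 3 and atorvastatin 3 (0.10) and with the block besides (0.12). For atorvastatin, Mir122 turned negative with DESeq2 size factors (-0.005599), library totals (-0.065), loess (-0.065), a minimum count of 30 (-0.012), DESeq2 (-0.012), the compared groups alone (-0.001425), without both libraries (-0.28, and -0.46 with the block), with the closed background as covariate (-0.0907), without atorvastatin 4 (-0.40) or control 3 (-0.38), where 0.25 was the highest on leaving out 1 library. Mir33 turned positive without atorvastatin 1 (0.15), atorvastatin 2 (0.13) or control 3 (0.003447), where -0.29 was the lowest on leaving out 1 library. Mir101c for PCN against atorvastatin turned positive without both libraries (0.25, and 0.53 with the block) or without atorvastatin 3 (0.18), where -2.12 was the lowest on leaving out 1 library.

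The number of members at an unadjusted p under 0.05 moved. The shares of all promoters under the same settings are not given here, so these moves are not read as particular to members. For PCN (44) it was 70 with DESeq2, 72 with the compared groups alone, 112 without both libraries with the block, and 16 to 92 leaving out 1 library. For atorvastatin (25) it was 55 with loess, 59 with limma-voom, 9 with the compared groups alone, 61 without both libraries, 157 with the block besides, 67 with the closed background as covariate, and 17 to 64 leaving out 1 library. For PCN against atorvastatin (21) it was 44 with no filter, 39 with DESeq2, 0 with limma-voom, 49 with the compared groups alone, 12 with the replicate block, 4 without both libraries, 32 with the block besides, 5 with the covariate, and 0 to 109 leaving out 1 library.

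Replicate numbers are not said to mark a shared animal or day, and the correlations of same-numbered libraries ran from -0.416 to 0.5, positive in all 3 group pairs for numbers 1 and 4 and not for 2 and 3, so the libraries were not taken as paired. With the replicate block 46, 30 and 12 members had an unadjusted p under 0.05 and none passed the adjusted threshold. Without both libraries and with the block, 6 members passed an adjusted p of 0.05 for PCN (Mir139, Mir122, Mir107, Mir122b, Mir3968, Mir704) and 3 for atorvastatin (Mir7043, Mir6965, Mir704), with Mir107 at 0.65, Mir139 at -1.31 and Mir122 at -0.64 for PCN and Mir6965 at -1.09 and Mir7043 at -0.94 for atorvastatin, by edgeR with Benjamini-Hochberg adjustment. Without the block none did. The shares of all promoters called in the fits with the block are not given here. These counts therefore do not set members apart from other promoters. The number of open members ran from 661 with the 4 control libraries to 999 with the vomeronasal background. The cause of these moves was not tested. Control 3 and control 4, with 305 and 201 members at 0, limit what low windows can show.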
